A study of Homo sapiens with 9 samples.

Results

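The 10 genes described here encode receptors, adaptors, relay proteins and transcription factors of innate sensing: TLR3, TMEM173 (STING), MAVS, TICAM1 (TRIF), MYD88, TRAF3, TRAF6, IRF1, IRF2 and IRF3. They were chosen by gene symbol for their place around the kinase TBK1 in innate sensing, and they are 10 of the 58735 genes in the deposited count table. RNA was sequenced from the established human pancreatic cancer line MIA PaCa-2, whose genotype the labels give as WT. The cells had been treated for 24 h with 0.1% DMSO as vehicle, with 1 μM compound 1, an inhibitor of TBK1 and IKKε, or with 1 μM SCH772984, an inhibitor of ERK, and each group had 3 libraries. All libraries came from this 1 line at 1 dose and 1 time. No source used here says whether the libraries of a group came from separate cultures, so the p-values cover the spread between these libraries, which may be technical.

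Cells detect foreign or misplaced nucleic acid with several receptors. TLR3 binds double-stranded RNA in endosomes and signals through the adaptor TICAM1, RIG-I-like receptors detect RNA in the cytosol and signal through MAVS on mitochondria, and the DNA sensor cGAS signals through STING. These adaptors bring in TRAF3 and the kinases TBK1 and IKKε, which phosphorylate IRF3, and IRF3 then turns on interferon genes. The other Toll-like receptors signal largely through MYD88 and TRAF6 to NF-κB. IRF1 activates interferon-inducible promoters, and IRF2 competes with it for the same elements.

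Library totals were 9464432 to 10286223 counts with DMSO, 9652741 to 9840769 with compound 1 and 11056977 to 13887859 with SCH772984. The ERK output genes fell with SCH772984, with a log2 fold change of −6.81 for SPRY4, −6.82 for DUSP6 and −5.80 for ETV4 (edgeR, adjusted p at most 4.3e-13), and their values with compound 1 were 0.06, 0.01 and −0.14. DUSP6 had 25 to 51 counts with DMSO and 0 to 1 with SCH772984, so the size of its fall is not well fixed. Among the 6 epithelial markers, KRT8, KRT18 and KRT19 were expressed and EPCAM had 0 counts in all 9 libraries, and of the 6 pancreatic lineage markers SOX9 was expressed whereas PTF1A, CPA1, PRSS1 and INS had 0 counts. The leukocyte markers PTPRC and CD3E also had 0 counts throughout, and the 6 leukocyte markers summed to 1.62 to 3.36 CPM, the counts scaled to a common library depth, in any library. Of 6 fibroblast markers 4 rose with SCH772984, where 37.2% of all genes tested did, among them COL1A1 and PDGFRB, which reached the test through their SCH772984 counts, and their summed level went from 469 to 518 CPM with DMSO to 1039 to 1167 CPM, while with compound 1 it was 476 to 533 CPM. DCN and LUM of this list had 0 to 1 counts per library. Summed levels with DMSO and SCH772984 were 3499 to 3758 and 1095 to 1284 CPM for the 6 epithelial markers, 2463 to 2633 and 1963 to 2306 CPM for the 4 mesenchymal markers, 125 to 131 and 52.8 to 58.0 CPM for the 6 pancreatic lineage markers, and 2.89 to 4.53 and 0 to 0.539 CPM for the 4 endothelial markers. Single genes carried most of these sums, with KRT8 and KRT18 lower (log2 fold changes −1.69 and −2.40) and KRT19 not called (0.11) among the epithelial markers, VIM (−0.23) and ZEB1 (−0.61) lower but FN1 higher (1.72) among the mesenchymal ones, and SOX9 (−1.18) and CDH5 (−4.79) lower. ITGAM, the leukocyte marker that was tested, was higher (0.94, SE 0.39, adjusted p = 0.0305, edgeR). FN1 and ITGAM, at 7 to 16 and 7 to 11 counts with DMSO, reached this test through their SCH772984 counts. CDH5 had 28 to 40 counts with DMSO and 0 to 4 with SCH772984, so the size of its fall is not well fixed either. The part of these marker changes in the results below was not tested.

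Promoter sequences are shown for the 4 genes that were higher with SCH772984. They are the part of the 250 bases before the RefSeq start that lies outside the gene span of the count table, taken from RefSeq on GRCh38.p14, and capitals mark matches to the motifs searched. TLR3 (ENSG00000164342) lies on chromosome 4 from 186069152 to 186088069 on the plus strand, IRF1 (ENSG00000125347) on chromosome 5 from 132481609 to 132490798 on the minus strand, MAVS (ENSG00000088888) on chromosome 20 from 3846799 to 3876123 on the plus strand, and TRAF6 (ENSG00000175104) on chromosome 11 from 36487027 to 36510272 on the minus strand. Each sequence is written 5′ to 3′ on the strand of its gene.
TLR3, chr4:186068906-186069151, plus strand: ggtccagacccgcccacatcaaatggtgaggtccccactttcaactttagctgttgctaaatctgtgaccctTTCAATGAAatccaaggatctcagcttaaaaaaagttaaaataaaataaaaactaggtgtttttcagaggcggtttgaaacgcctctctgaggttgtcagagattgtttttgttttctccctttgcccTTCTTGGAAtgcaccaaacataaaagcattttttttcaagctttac
IRF1, chr5:132490799-132491023, minus strand: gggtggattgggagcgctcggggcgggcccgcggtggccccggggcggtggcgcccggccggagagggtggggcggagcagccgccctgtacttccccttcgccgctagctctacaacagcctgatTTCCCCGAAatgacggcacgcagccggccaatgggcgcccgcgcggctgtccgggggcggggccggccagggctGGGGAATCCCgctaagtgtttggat
MAVS, chr20:3846584-3846798, plus strand: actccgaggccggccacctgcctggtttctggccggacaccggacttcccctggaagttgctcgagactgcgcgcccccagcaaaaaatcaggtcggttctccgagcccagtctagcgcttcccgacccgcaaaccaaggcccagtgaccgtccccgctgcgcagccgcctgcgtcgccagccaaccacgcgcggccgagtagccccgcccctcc
TRAF6, chr11:36510273-36510522, minus strand: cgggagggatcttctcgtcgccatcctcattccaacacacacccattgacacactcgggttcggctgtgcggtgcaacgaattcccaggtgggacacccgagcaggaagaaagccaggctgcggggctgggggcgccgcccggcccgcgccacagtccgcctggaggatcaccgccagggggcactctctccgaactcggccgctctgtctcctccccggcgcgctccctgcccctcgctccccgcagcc

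Searches covered both strands of the 250 bases before the start for 5 motifs: an ISRE core (GAAA, any 2 bases, GAAA, bound by IRF proteins), a GAS element (TTCNNNGAA, found at interferon-inducible promoters), an NF-κB motif (GGG, any 2 bases, T, any 2 bases, CC), an AP-1 motif (TGANTCA) and an ETS core (CCGGAA). Among 34943 RefSeq promoters, 3.02% held the ISRE core, 6.56% the GAS element, 19.64% the NF-κB motif, 6.59% the AP-1 motif and 14.48% the ETS core. The TLR3 promoter held the GAS element at 2 places, 170 and 42 bases before the start. In the IRF1 promoter there was a GAS element 116 bases and an NF-κB motif 41 bases before the start, and the MAVS and TRAF6 windows held none of the 5. MYD88 had an ISRE core at 52 bases, overlapping a GAS element at 59 bases, and an NF-κB motif at 116 bases, but 183 of its 250 bases lie inside the gene span of the count table. An NF-κB motif stood 111 bases before the start of TICAM1 and 24 bases before that of TRAF3. These matches describe the letters of the window and say nothing of binding. Guanine and cytosine made up 39.2% of the TLR3 promoter, against 64.4% to 86.4% in the other 6 members with a sequence and a median of 58.0% over all promoters. TMEM173, IRF2 and IRF3 had no entry in the promoter table.

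The 10 genes differed widely in level in vehicle-treated cells. Levels were compared between genes as FPKM, computed here as TMM-normalized CPM per kilobase of the deposited gene length. With DMSO, IRF3 was highest at 20.2 ± 0.733 FPKM (SD, n = 3), followed by MAVS at 15.5 ± 0.441 and TRAF3 at 11.7 ± 0.755. TICAM1 stood at 5.81 ± 0.822 FPKM, IRF2 at 3.69 ± 0.134 and MYD88 at 1.81 ± 0.375, and the ranges of neighbours down to this point did not overlap. TRAF6 at 1.09 ± 0.152 FPKM and IRF1 at 1.03 ± 0.102 overlapped and could not be ordered. The receptor and adaptor for double-stranded RNA and cytosolic DNA, TLR3 and TMEM173, were the lowest, with 0.0585 ± 0.0227 FPKM for TLR3 and 0.383 ± 0.0428 for TMEM173. TLR3 was thus present at 5, 2 and 4 counts in the DMSO libraries, and TMEM173 at 16, 13 and 12.

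**Figure D1:**
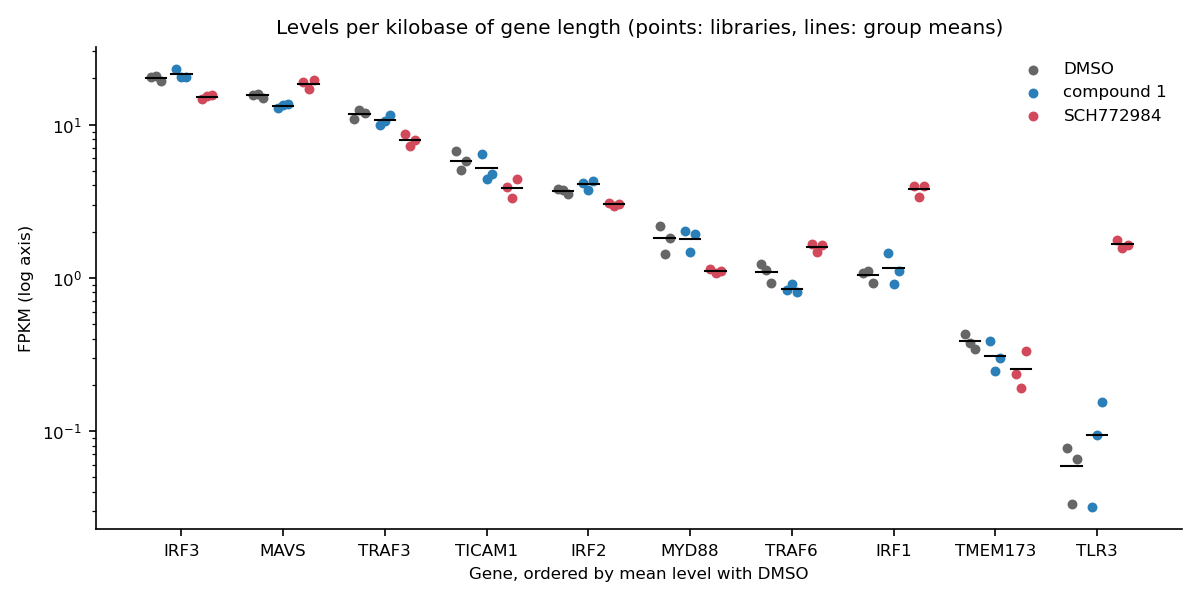
Levels of the 10 genes in FPKM (log axis), ordered by their mean with DMSO, with 1 point per library and a line at the mean of each group of 3. IRF3, MAVS and TRAF3 sit at the top, and TLR3 moves from 0.0585 FPKM with DMSO to 1.65 FPKM with SCH772984.

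With SCH772984 the order changed. MAVS led at 18.5 ± 1.22 FPKM, above IRF3 at 15.2 ± 0.494 FPKM, and their ranges did not overlap. TICAM1 at 3.87 ± 0.556 FPKM and IRF1 at 3.77 ± 0.354 FPKM overlapped, as did TLR3 at 1.65 ± 0.109 FPKM and TRAF6 at 1.59 ± 0.101 FPKM. MYD88 at 1.10 ± 0.0378 FPKM and TMEM173 at 0.253 ± 0.0723 FPKM were the lowest of the 10.

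To ask how ERK inhibition touched the sensing apparatus, SCH772984 was compared with DMSO by edgeR's quasi-likelihood test, with Benjamini-Hochberg adjustment over all genes tested and a call at an adjusted p under 0.05. All 10 genes were tested, 4 rose (TLR3, IRF1, TRAF6 and MAVS), 4 fell (MYD88, TICAM1, TRAF3 and IRF3) and 2 were not called (TMEM173 and IRF2). Among the 13834 genes tested, 37.2% rose and 35.5% fell, so that being called was common. Scaled by library size alone, these shares were 45.1% and 28.3%. TLR3 reached the test through its counts with SCH772984. Over the 10 genes the median log2 fold change was −0.33, and over all genes tested it was 0.03. In bulk RNA a change in the cells of a type and a change in the RNA per cell cannot be told apart. In all 10 genes, including TMEM173 and IRF2, the 3 SCH772984 libraries did not overlap the 3 DMSO libraries in CPM, and the same held for 74.2% of all genes tested.

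**Figure D2:**
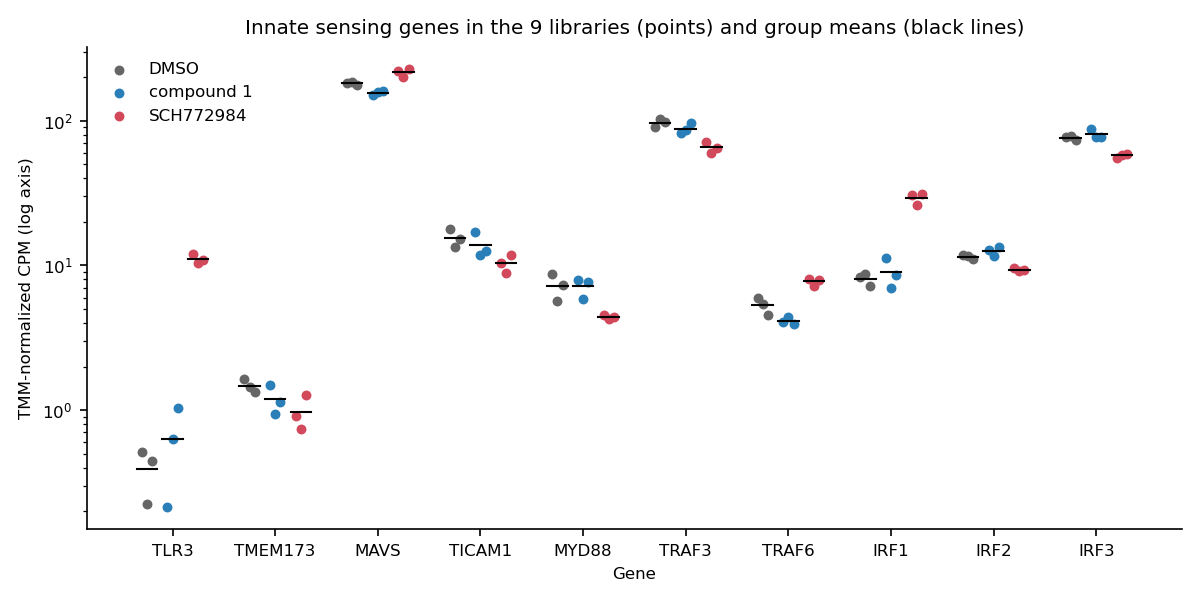
TMM-normalized CPM (log axis) of the 10 genes in the 9 libraries, with 1 point per library and a line at each group mean. TLR3 and IRF1 stand out, at 10.5 to 11.9 CPM and 26.2 to 31.1 CPM with SCH772984 against 0.223 to 0.516 CPM and 7.18 to 8.68 CPM with DMSO.

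TLR3, the endosomal receptor for double-stranded RNA, showed the largest change of the 10. Its level was 0.516, 0.223 and 0.442 CPM in the DMSO libraries and 11.9, 10.5 and 11.0 CPM in the SCH772984 libraries. All 3 SCH772984 libraries lay far above every DMSO and compound 1 library. The log2 fold change was 4.79 (SE 0.30, 95% interval 4.19 to 5.39, edgeR adjusted p = 7.54e-19), a 27.7-fold rise that ranked 74th highest among the genes tested. Pooled counts were 435 with SCH772984 and 11 with DMSO, a depth-adjusted ratio of 28.0 with an exact 95% interval of 15.5 to 56.5 for counting error only. Without any one library, or under another scaling or filter, the log2 fold change stayed between 4.50 and 5.02.

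Of the adaptors, MAVS rose and both Toll-like receptor adaptors fell. MAVS was at 184, 187 and 177 CPM with DMSO and at 222, 201 and 229 CPM with SCH772984, and the lowest SCH772984 library was above the highest DMSO library. Its log2 fold change was 0.27 (SE 0.06, adjusted p = 0.000164, edgeR), a change of 1.21-fold. TICAM1, on chromosome 19 from 4815932 to 4831704 on the minus strand, is the adaptor through which TLR3 signals. It had 17.8, 13.5 and 15.3 CPM with DMSO and 10.4, 8.82 and 11.8 CPM with SCH772984 (log2 fold change −0.56, SE 0.15, adjusted p = 0.000735, edgeR). TICAM1 therefore fell by 1.48-fold in the same libraries in which TLR3 rose. MYD88, on chromosome 3 from 38138478 to 38143022 on the plus strand, serves most other Toll-like receptors and interleukin-1 receptors. It went from 8.67, 5.68 and 7.29 CPM to 4.55, 4.25 and 4.38 CPM, with a log2 fold change of −0.70 (SE 0.20, 95% interval −1.11 to −0.28, adjusted p = 0.0024, edgeR). STING, encoded by TMEM173 on chromosome 5 from 139475534 to 139482935 on the minus strand, was not called. It had 1.65, 1.45 and 1.32 CPM with DMSO and 0.910, 0.735 and 1.28 CPM with SCH772984, and its log2 fold change was −0.55 (SE 0.40, 95% interval −1.35 to 0.25, edgeR adjusted p = 0.208). At 9 to 19 counts per library, the interval for TMEM173 held both a fall of more than 2-fold and a small rise.

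The relay proteins TRAF3 and TRAF6 moved in opposite directions. TRAF3, on chromosome 14 from 102777476 to 102911500 on the plus strand, links MAVS and TICAM1 to TBK1. Its values were 90.1, 102 and 98.8 CPM with DMSO and 71.6, 59.7 and 65.2 CPM with SCH772984, a log2 fold change of −0.55 (SE 0.08, adjusted p = 1.83e-08, edgeR). TRAF6, a ubiquitin ligase that activates the TAK1 kinase below MYD88, went from 5.98, 5.45 and 4.53 CPM to 8.10, 7.19 and 7.95 CPM. The log2 fold change of TRAF6 was 0.56 (SE 0.19, adjusted p = 0.00773, edgeR), and without DMSO replicate 3 it was 0.44 and no longer called (adjusted p = 0.0621). Over the other alternatives run for TRAF6 its adjusted p went down to 0.000651.

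IRF1 was the transcription factor that rose. It stood at 8.36, 8.68 and 7.18 CPM with DMSO and at 30.8, 26.2 and 31.1 CPM with SCH772984, so that each SCH772984 library was above every other library of the series. The log2 fold change was 1.88 (SE 0.13, 95% interval 1.62 to 2.15, adjusted p = 4.06e-17, edgeR), which is 3.69-fold. C5orf56 overlaps 1716 of the 7799 exon bases of IRF1 on the opposite strand, and AC116366.3 overlaps 469. The strand setting of the counting was not given in the sources used here, so reads of these genes and IRF1 may not be separated. C5orf56 itself had 11, 0 and 3 counts with DMSO and 36, 17 and 49 with SCH772984, beside 65 to 81 and 321 to 462 counts for IRF1. IRF2, on chromosome 4 from 184387713 to 184474580 on the minus strand, was not called, at 11.9, 11.6 and 11.0 CPM with DMSO and 9.59, 9.15 and 9.37 CPM with SCH772984 (log2 fold change −0.27, SE 0.15, 95% interval −0.58 to 0.03, edgeR adjusted p = 0.101). IRF3, on chromosome 19 from 49659569 to 49665875 on the minus strand, is the factor that TBK1 phosphorylates. It went from 77.7, 78.8 and 73.5 CPM to 55.6, 58.1 and 59.2 CPM, a log2 fold change of −0.39 (SE 0.08, adjusted p = 1.29e-05, edgeR). BCL2L12 overlaps 734 of the 3794 exon bases of IRF3 on the opposite strand. Its counts were 673 to 775 with DMSO and 340 to 613 with SCH772984, and its part in the IRF3 value was not tested. The other 8 members shared no exon bases with another gene.

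**Figure D3:**
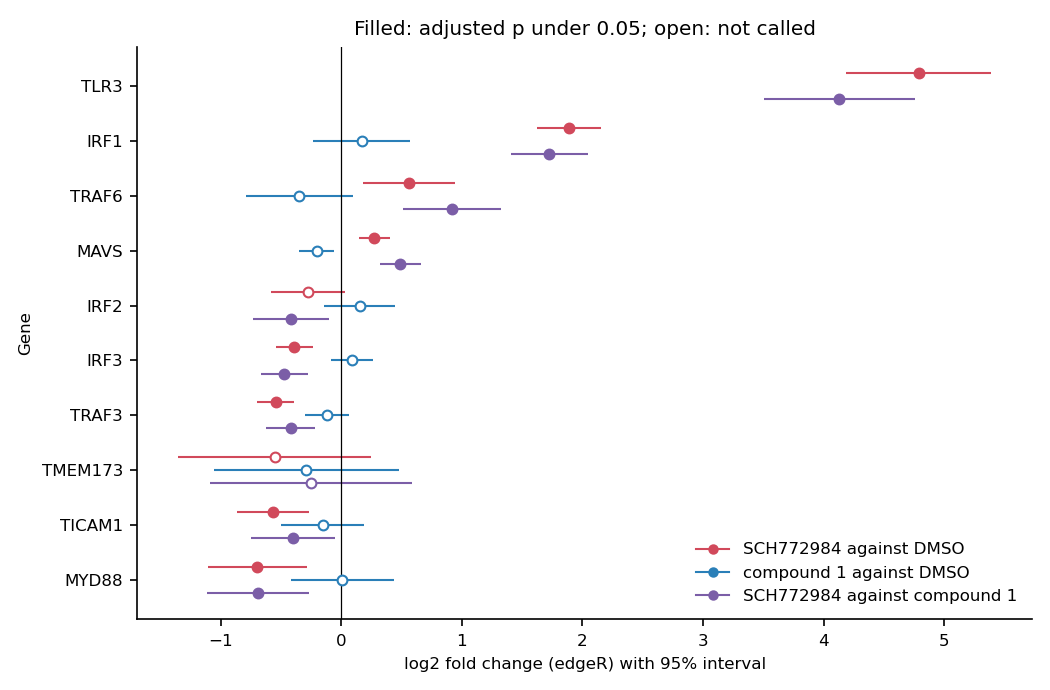
Log2 fold change with its 95% interval (edgeR) for each gene in each comparison, with filled points where the adjusted p was under 0.05. TLR3 (4.79) and IRF1 (1.88) lie to the right with SCH772984 against DMSO, and all compound 1 points are open.

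Compound 1 was compared with DMSO to ask what TBK1 and IKKε inhibition did to the same genes. Of the 9 genes tested, 0 rose and 0 fell by edgeR at an adjusted p under 0.05, against 0.49% and 0.374% of the 12849 genes tested, and DESeq2 likewise called 0 and 0, against 0.911% and 0.949% of all genes. Scaling by library size alone gave 0.662% of all genes higher and 0.195% lower. Over all genes these calls turned on single libraries, from 453 higher and 798 lower without compound 1 replicate 1 to 5 higher and 3 lower without DMSO replicate 2. Without each of the other 4 libraries in turn, 6 to 27 were higher and 4 to 24 lower. At an unadjusted p under 0.05, 1 member fell and 0 rose, against 7.69% and 7.35% of all genes tested. The member that fell at this threshold was MAVS, with 151, 158 and 160 CPM against 184, 187 and 177 CPM with DMSO. The libraries of the 2 groups did not overlap, as for 12.1% of all genes tested in this direction, and the log2 fold change was −0.21 (SE 0.07, 95% interval −0.35 to −0.06, unadjusted p = 0.0076, edgeR adjusted p = 0.157). Without compound 1 replicate 1, MAVS passed with an adjusted p of 0.0354 (edgeR) in a fit that called 6.10% of all genes lower, and over the alternatives the adjusted p ran from 0.0354 to 0.518. TRAF6 had 4.05, 4.41 and 3.95 CPM with compound 1, below all DMSO libraries, but its log2 fold change of −0.35 (SE 0.21, 95% interval −0.79 to 0.10) had an edgeR adjusted p of 0.475.

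The other members tested with compound 1 gave intervals that all included 0. IRF1 was at 11.3, 7.04 and 8.62 CPM (log2 fold change 0.17, 95% interval −0.23 to 0.57) and IRF2 at 12.9, 11.7 and 13.4 CPM (0.15, −0.14 to 0.45). IRF3 was at 87.5, 77.4 and 77.2 CPM (0.09, −0.08 to 0.27) and TRAF3 at 82.1, 87.1 and 96.0 CPM (−0.12, −0.30 to 0.07). TICAM1 was at 17.1, 11.8 and 12.7 CPM (−0.15, −0.50 to 0.19), MYD88 at 7.99, 5.88 and 7.68 CPM (0.01, −0.42 to 0.43) and TMEM173 at 1.49, 0.945 and 1.14 CPM (−0.29, −1.05 to 0.47). For IRF1, IRF2, IRF3, TRAF3, TICAM1 and MYD88, changes of 1.5-fold lie outside these intervals, for IRF1 only just. For TMEM173 a 2-fold fall lies inside. TLR3, at 2, 6 and 10 counts with compound 1, was below the count filter. Fitted without the filter, TLR3 had a log2 fold change of 0.66 (SE 0.73, edgeR adjusted p = 0.677), so that no difference was detectable at this depth.

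Set against each other at the same dose and time, the inhibitors differed in 9 of the 10 genes. SCH772984 libraries were higher than compound 1 libraries in 4 and lower in 5, where 33.7% and 32.6% of the 13863 genes tested were called in each direction (39.9% and 26.9% by library size alone), and TMEM173 was not called. TLR3 was higher by a log2 fold change of 4.13 (SE 0.30, adjusted p = 1.78e-10, edgeR), IRF1 by 1.72 (SE 0.15, adjusted p = 4.24e-09), TRAF6 by 0.92 (SE 0.19, adjusted p = 0.000321) and MAVS by 0.49 (SE 0.08, adjusted p = 2.36e-05). On the lower side were MYD88 at −0.70 (SE 0.20, adjusted p = 0.005), IRF3 at −0.47 (SE 0.09, adjusted p = 0.000173) and TRAF3 at −0.42 (SE 0.10, adjusted p = 0.000786). IRF2 at −0.42 (SE 0.15, adjusted p = 0.0187, edgeR) and TICAM1 at −0.40 (SE 0.17, adjusted p = 0.0393) were less secure. IRF2 was not called without SCH772984 replicate 2 (adjusted p = 0.0513, edgeR), without compound 1 replicate 3 (0.0578) or scaled by library size alone (0.102). TICAM1 was lost without SCH772984 replicate 1 (0.0744), SCH772984 replicate 2 (0.159) or compound 1 replicate 1 (0.274), and also with DESeq2 (0.0561), scaled by library size alone (0.169), with at least 10 counts in each library (0.0944) and over protein-coding genes alone (0.0516). TMEM173 differed by −0.26 (SE 0.40, 95% interval −1.09 to 0.58). Both comparisons with DMSO use the same 3 DMSO libraries, which this comparison does not.

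Ratios of 2 members within a library do not depend on scaling between libraries. The activator IRF1 to its competitor IRF2 stood at 0.281, 0.300 and 0.260 per length with DMSO, at 0.350, 0.241 and 0.257 with compound 1 and at 1.28, 1.15 and 1.33 with SCH772984. Per base of deposited gene length, IRF2 was thus above IRF1 in all DMSO and compound 1 libraries, and the reverse held in all 3 SCH772984 libraries. These lengths were 7799 bases for IRF1 and 3116 for IRF2, and numbers of transcripts were not measured. Which gene is above the other depends on the lengths, whereas the difference between groups does not. The mean log2 ratio was higher by 2.16 with SCH772984 than with DMSO, which is 4.47-fold, and also by 2.16 than with compound 1. For TRAF3 to TRAF6 the ratios were 8.87, 11.0 and 12.9 with DMSO, 12.0, 11.6 and 14.3 with compound 1 and 5.21, 4.90 and 4.83 with SCH772984. The difference between SCH772984 and DMSO was −1.12 on the log2 scale, and that between SCH772984 and compound 1 −1.34. The adaptor ratio of TICAM1 to MYD88 overlapped between all groups, at 3.07, 3.54 and 3.14 with DMSO, 3.20, 2.98 and 2.46 with compound 1 and 3.41, 3.10 and 4.01 with SCH772984. In a two-sided exact permutation test of 3 against 3 libraries the smallest p is 0.1, so none of the 9 tests could pass 0.05. Both SCH772984 comparisons of IRF1 to IRF2 and of TRAF3 to TRAF6 gave this smallest p of 0.1 (0.225 adjusted over the 9 tests), and the TICAM1 to MYD88 difference between SCH772984 and DMSO had an exact p of 0.6 (0.675 adjusted).

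**Figure D4:**
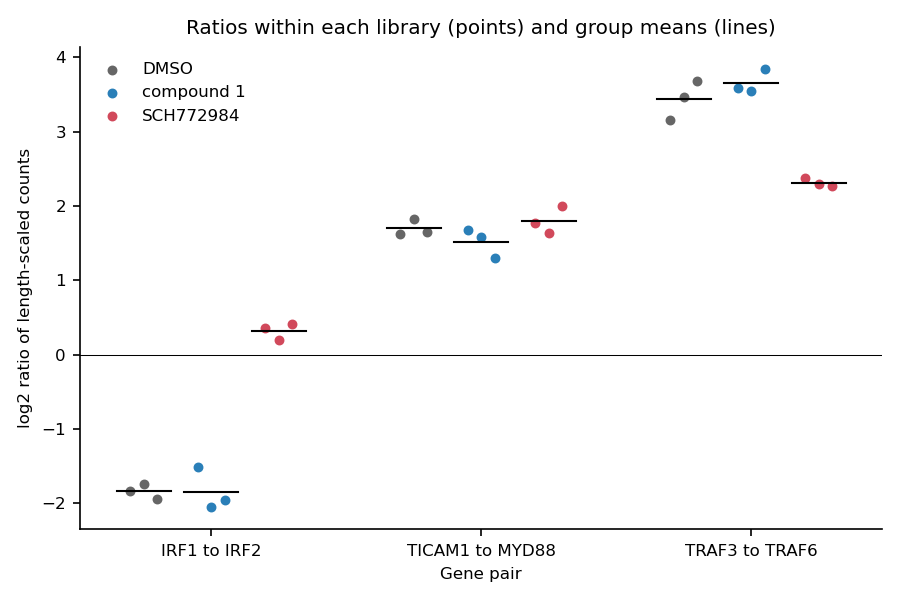
Log2 ratios of length-scaled counts of 3 pairs of members, with 1 point per library and a line at each group mean. IRF1 to IRF2 lies below 0 with DMSO and compound 1 and above 0 with SCH772984, and TRAF3 to TRAF6 is lowest with SCH772984.

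The genes around the 10 members were grouped in 10 lists of 90 pathway genes, of which 12 had 0 counts in all libraries. With SCH772984, 61 of them were tested against DMSO, 26 rose and 18 fell by edgeR, to be read against the 37.2% and 35.5% of all genes. With compound 1, 59 were tested, and 1 rose and 0 fell at an adjusted p under 0.05, where 0.49% and 0.374% of all genes did. At an unadjusted p under 0.05 these were 4 and 2, where 7.35% and 7.69% of all genes were called, and DESeq2 called 1 and 0.

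**Figure D5:**
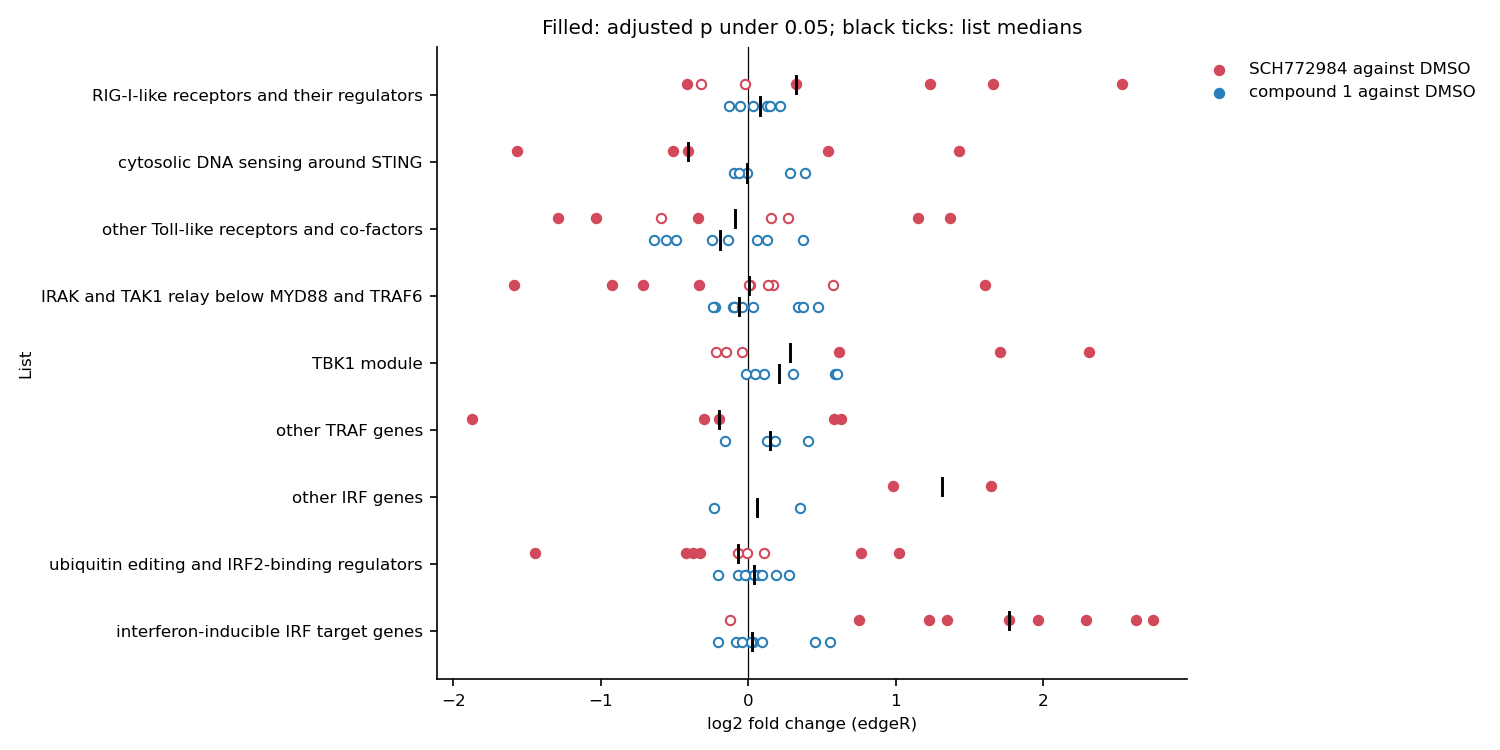
Log2 fold change (edgeR) of the tested genes of 9 lists with SCH772984 (red) and compound 1 (blue) against DMSO, filled where the adjusted p was under 0.05, with black ticks at list medians. The interferon-inducible list is furthest to the right with SCH772984 (median 1.77), and its compound 1 median is 0.03.

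Of the RNA sensors upstream of MAVS, DHX58 and IFIH1 were higher with SCH772984, and DDX58, which encodes RIG-I, was not called (log2 fold change −0.32, SE 0.24, edgeR adjusted p = 0.225). Among the 7 RIG-I-like receptors and their regulators, 4 rose, 1 fell and 2 were not called (median log2 fold change 0.33). Over all genes tested, 37.2% rose and 35.5% fell. DHX58, which encodes the receptor LGP2, rose from 1.56 to 1.75 CPM with DMSO to 8.60 to 10.2 CPM, with a log2 fold change of 2.53 (SE 0.23, adjusted p = 1.95e-13, edgeR). IFIH1, which encodes the long double-stranded RNA sensor MDA5, rose by 1.66 (SE 0.41, adjusted p = 0.000366, edgeR). IFIH1 had 4 to 8 counts with DMSO and 27 to 29 with SCH772984 and reached the test through the latter, and without it the list had a median of 0.15. PCBP2, which promotes the breakdown of MAVS, fell by 0.42 (SE 0.06, adjusted p = 1.31e-07, edgeR). The median of this list with compound 1 was 0.08.

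Genes around STING were divided. Of the 8 genes of cytosolic DNA sensing, 5 were tested, 2 rose and 3 fell (median −0.41), where 37.2% and 35.5% of all genes did. CGAS, the DNA sensor upstream of STING, went from 21.9 ± 1.34 to 7.28 ± 0.168 CPM (SD, n = 3), a log2 fold change of −1.57 (SE 0.14, adjusted p = 1.18e-13, edgeR), and the DNA-binding helicase DDX41 from 114 to 79.1 CPM (−0.51, adjusted p = 1.47e-08). ENPP1, which degrades the messenger cGAMP outside cells, rose by 1.43 (SE 0.32, adjusted p = 0.000127, edgeR). ENPP1 had 7 to 18 counts with DMSO and 42 to 54 with SCH772984, and reached this test through the latter. STIM1, which holds STING in the endoplasmic reticulum, rose by 0.54 (SE 0.08, adjusted p = 1.58e-07, edgeR). ZBP1 and TREX1 had 0 counts in all 9 libraries. With compound 1 the list had a median of −0.01.

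Of the other Toll-like receptor genes that passed the count filter, TLR6 was called with SCH772984, and it was lower. TLR2 was below the filter, at 0 to 1 counts with DMSO and 2 to 8 with SCH772984. Fitted without the filter, TLR2 was higher (log2 fold change 3.34, SE 1.22, edgeR adjusted p = 0.0179), at counts too low to fix its size. In the list of 16 receptors and co-factors 8 were tested, 2 rose, 3 fell and 3 were not called (median −0.09). The shares of all genes tested were 37.2% higher and 35.5% lower. UNC93B1, which carries TLR3 and other nucleic acid receptors to endosomes, rose from 61.7 ± 3.41 to 157 ± 14.6 CPM (SD, n = 3), a log2 fold change of 1.37 (SE 0.07, adjusted p = 3.87e-21, edgeR). SARM1, a TIR domain protein, rose by 1.15 (SE 0.15, adjusted p = 3.93e-09, edgeR). CD14 was lower by −1.29 (SE 0.34, adjusted p = 0.000955, edgeR) and TLR6 by −1.03 (SE 0.24, adjusted p = 0.000161), both members of receptor complexes for bacterial lipids. TLR4 and TLR10 had 0 counts in all libraries, and the compound 1 median was −0.19.

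Below MYD88 and TRAF6, the IRAK and TAK1 relay held genes that moved both ways. Of 12 genes 10 were tested, 1 rose, 4 fell and 5 were not called (median 0.01, and −0.06 with compound 1). Among all genes tested, 37.2% rose and 35.5% fell with SCH772984. IRAK4, the kinase that MYD88 recruits, rose from 3.67 ± 0.343 to 11.1 ± 2.17 CPM (SD, n = 3; log2 fold change 1.61, SE 0.20, adjusted p = 1.06e-09, edgeR). Its substrate IRAK1 fell from 795 ± 9.94 to 260 ± 18.3 CPM (−1.59, SE 0.06, adjusted p = 1.33e-26, edgeR). UBE2N, the ubiquitin-conjugating enzyme that works with TRAF6, fell by 0.92 on the log2 scale (SE 0.08, adjusted p = 1.24e-14, edgeR).

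In the TBK1 module of 6 genes, 3 rose and 3 were not called with SCH772984 (median 0.28), where 37.2% of all genes tested rose. OPTN, an ubiquitin-binding adaptor of TBK1, went from 20.6 ± 0.538 to 100 ± 7.51 CPM (SD, n = 3), a log2 fold change of 2.31 (SE 0.09, adjusted p = 7.95e-27, edgeR). IKBKE, which encodes IKKε, went from 1.70 ± 0.335 to 5.49 ± 0.610 CPM (1.71, SE 0.27, adjusted p = 2.58e-07, edgeR). TBK1 itself was at 35.5 to 38.7 CPM with DMSO and 30.9 to 35.4 CPM with SCH772984 (−0.15, SE 0.09, adjusted p = 0.147, edgeR). OPTN was also the gene of the 10 lists called with compound 1, at 30.5 ± 5.50 CPM and a log2 fold change of 0.59 (SE 0.13, adjusted p = 0.0464, edgeR). That call was lost without compound 1 replicate 3 (adjusted p = 0.175, edgeR) and without DMSO replicate 1 (0.207), 2 (0.263) or 3 (0.183), and over protein-coding genes alone (0.0526). The compound 1 median of the module was 0.21.

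At the end of the pathway, interferon genes were at or close to 0 counts and interferon-inducible genes were higher with SCH772984. Of 8 interferon genes, IFNB1, IFNA1, IFNA2, IFNE, IFNL1 and IFNL3 had 0 counts in all 9 libraries, the highest count of any of the 8 was 2, and none entered the test. A count of 0 allows up to 3 counts, or 0.202 to 0.334 CPM in these libraries, for counting error only. Of 13 interferon-inducible IRF targets 9 were tested, 8 rose and 1 was not called (median 1.77, and 0.03 with compound 1). For this list and the other IRF genes below, the shares of all genes were 37.2% higher and 35.5% lower. MX1, with 2 to 6 counts with DMSO and 28 to 33 with SCH772984, reached the test through the latter, and without it 7 of 8 rose with a median of 1.56. PSMB9, an immunoproteasome subunit, went from 3.15 ± 1.52 to 21.0 ± 2.56 CPM (SD, n = 3; log2 fold change 2.74, SE 0.20, adjusted p = 6.2e-14, edgeR), and the guanylate-binding protein gene GBP2 from 2.03 ± 0.652 to 12.4 ± 1.53 CPM (2.63, SE 0.22, adjusted p = 1e-14). Of the 6 other IRF genes 2 were tested and both rose (median 1.31, and 0.06 with compound 1), IRF5 by 1.65 (SE 0.16, adjusted p = 1.83e-12, edgeR) and IRF9 by 0.98 (SE 0.32, adjusted p = 0.0055, edgeR).

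Genes with profiles most like TLR3 and MYD88, the members with the largest change in each direction, were sought by Euclidean distance between log2 CPM profiles centred on their mean over the 9 libraries, among 11880 protein-coding genes. For TLR3 these were ST6GALNAC2 (distance 0.831), TLL2 (1.02) and PLD1 (1.04), with log2 fold changes of 4.76, 4.69 and 6.02 with SCH772984. These 3 genes were below the count filter in compound 1 against DMSO, as TLR3 was, and their changes with SCH772984 follow from the choice by profile. For MYD88 they were MRPS18A (0.322), HDHD5 (0.325) and CWF19L2 (0.332), with −0.68, −0.70 and −0.78 with SCH772984 and 0.05, −0.06 and −0.09 with compound 1. The likeness rests on all 9 libraries, which share treatment and depth, and is given as a description.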

How the data were processed

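RNA-seq of MIA PaCa-2 cells was analysed from the table of raw counts deposited by the authors, with 58735 genes and 9 libraries. The submitters' processing notes name HISAT2 2.0.5, featureCounts 1.5.0-p3 and hg38. The strand setting was not given in the sources used here. All identifiers and coordinates matched GENCODE 29. Totals were 9464432 to 13887859 counts per library.

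Libraries were grouped by their labelled treatment. Each pair of groups was fitted separately with edgeR 4.0.16 (quasi-likelihood test, robust, TMM factors, filterByExpr with minimum count 10 and minimum total count 15) in R 4.3.3, and genes were called at a Benjamini-Hochberg adjusted p under 0.05 over all genes tested. The study does not say whether the p-value of its threshold was adjusted, so counts at an unadjusted p under 0.05 are given beside the compound 1 calls. The fits were tested on simulated counts. FPKM was TMM-normalized CPM divided by the deposited gene length in kilobases. Ratios were tested by exact permutation. Alternatives were library size alone, RLE factors, a single fit of the 9 libraries, a replicate block, no filter or a minimum of 10 counts throughout, protein-coding genes only, DESeq2 1.42.0, a 2-fold limit and each library left out.

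The members and the gene lists were chosen with earlier results of these data known. All 10 members were described, with up to 2 list genes of the largest change past the threshold in each direction at an average of at least 1 CPM, list genes at 0, the ERK output genes SPRY4, DUSP6 and ETV4, cell type markers, and the 3 genes most like the member with the largest change each way. TBK1, DDX58, MX1 and the overlapping genes fall outside this rule and were added after their values were seen. Some list genes are not reported here.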

Additional observations from a re-analysis of the deposited data

How the results depend on the processing

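The calls of members kept their direction under every alternative run for the 2 comparisons with SCH772984, with 151 values unchanged in call and 7 losing it against DMSO, and 141 and 17 against compound 1. Requiring at least 2-fold change as well left 2 members higher and 0 lower against DMSO (18.2% and 10.6% of all genes), and 2 higher and 0 lower against compound 1 (16.5% and 10.1%). By library size alone, which shifted the median of all genes by 0.174 on the log2 scale between SCH772984 and DMSO, 3 members were lower with SCH772984 than with compound 1, where 26.9% of all genes were lower and 39.9% higher. At an unadjusted p, 1 member was lower with compound 1 than with DMSO. With 1 library left out at a time, 0 to 1 members were lower with compound 1 than with DMSO (1 without compound 1 replicate 1), where 0.0228% to 6.10% of all genes were lower, and 3 to 5 were lower with SCH772984 than with compound 1 (3 without SCH772984 replicate 2), where 29.9% to 31.9% of all genes were lower. Among the members and their ratios, signs turned in values of compound 1 against DMSO that were not called: MYD88, at 0.01, had −0.0021 without a filter and −0.14 to 0.16 with 1 library left out, IRF1 had −0.031 to 0.32, and the log2 ratio of IRF1 to IRF2, at −0.0044, had −0.17 to 0.10. OPTN, for which these alternatives were added after seeing the data, ranged from 0.47 to 0.72 on the log2 scale, with adjusted p from 0.000848 to 0.263 (edgeR, DESeq2). DMSO levels by library size alone moved by more than 1 SD for MAVS (14.7 FPKM), IRF2 (3.49) and IRF3 (19.1).

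With replicate number as a replicate block, 4 members were higher and 4 lower with SCH772984 than with DMSO (37.2% and 35.6% of all genes), 0 and 0 with compound 1 than with DMSO, and 4 and 5 with SCH772984 than with compound 1 (33.1% and 31.9%), as without the block, while over all genes compound 1 gave 193 higher and 219 lower with the block and 63 and 48 without. No label says whether the numbers pair the samples. Deviations of libraries with the same number correlated at −0.0773 to 0.112 over 9 pairs, and of different numbers at −0.101 to 0.146 over 18. With 3 libraries per group, these correlations cannot decide whether the samples were paired. TMEM173 at 9 to 19 counts and TLR3 at 2 to 10 counts outside SCH772984 are limited by depth.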

Other observations

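Of 9 genes for ubiquitin-editing enzymes and IRF2-binding proteins, 2 rose, 4 fell and 3 were not called with SCH772984, where 37.2% of all genes tested rose and 35.5% fell (median log2 fold change −0.07, and 0.04 with compound 1). CYLD, a deubiquitinase that restrains NF-κB signaling, went from 42.0 ± 0.240 to 84.2 ± 6.82 CPM (SD, n = 3), a log2 fold change of 1.02 (SE 0.08, adjusted p = 2.95e-15, edgeR). TNFAIP3, which encodes the ubiquitin-editing enzyme A20, rose by 0.77 (SE 0.21, adjusted p = 0.00107, edgeR). IRF2BP2, a co-repressor that binds IRF2, went from 117 ± 4.79 to 42.3 ± 2.18 CPM (−1.45, SE 0.08, adjusted p = 1.03e-21, edgeR), and IRF2BPL fell by 0.42 (SE 0.10, adjusted p = 0.000341).

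Among the 5 other TRAF genes 2 were higher and 3 lower with SCH772984, to be read against the same 37.2% and 35.5% (median −0.20, and 0.15 with compound 1). TRAF1 went from 15.6 ± 3.05 to 4.14 ± 0.691 CPM (−1.88, SE 0.18, adjusted p = 9.36e-13, edgeR), TRAF7 was lower by −0.30 (adjusted p = 0.000772), and TRAF5 and TRAF4 rose by 0.63 (adjusted p = 0.00344) and 0.58 (adjusted p = 2.66e-09).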
